A study of Homo sapiens with 6 samples.

Results

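The lysophospholipid acyltransferases described here are 10 genes chosen by symbol, LPCAT1, LPCAT2, LPCAT3, LPCAT4, MBOAT1, MBOAT2, MBOAT7, LPGAT1, LCLAT1 and TAFAZZIN, out of 63241 genes in the deposited table. All 10 were found. Genes averaging 1 TPM or more across the 6 libraries were tested, 12999 in all, and all 10 were among them. TPM is the abundance of a gene's transcripts, corrected for transcript length, as a share of all transcripts in a library, so levels of different genes can be compared. RNA came from MDA-MB-231, an established human triple-negative breast cancer line. One group of 3 libraries was made after 24 h with 40 µM ArA, the arachidonic acid of the study's title. The other group of 3 was made from untreated cells, for which the labels name no vehicle. The labels do not say whether replicates were separate cultures, so p-values measure only how far these libraries differ, which may be technical.

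Phospholipids are remodelled in what is called the Lands cycle: a phospholipase A2 removes a fatty acid from a phospholipid, and a lysophospholipid acyltransferase puts another in its place from acyl-CoA. The acyltransferases choose both the lysophospholipid and the acyl chain, and so set how much arachidonate a membrane holds and in which phospholipid. They fall into a family built like the acyltransferases of glycerolipid synthesis (AGPAT type: LPCAT1, LPCAT2, LPCAT4, LPGAT1 and LCLAT1) and a family of multi-pass membrane proteins (MBOAT type: LPCAT3, MBOAT1, MBOAT2 and MBOAT7). Tafazzin stands apart, as it moves acyl chains directly between phospholipids without CoA. Not all of them favour polyunsaturated chains: LPCAT3 and MBOAT7 are the best known users of arachidonoyl-CoA, while LPCAT1 favours saturated chains.

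The windows around the start sites of MBOAT7, LPCAT1 and LPCAT3 are shown because these genes held 81.5 to 86.4% of the summed TPM of the 10 genes in every library. Each runs from 250 bases before to 50 after the start, 5′ to 3′ on the gene's own strand, the reverse strand for all 3 genes, from RefSeq on GRCh38.p14. Capitals mark the GC box GGGCGG, searched on both strands.
LPCAT3, chr12:7018427-7018726: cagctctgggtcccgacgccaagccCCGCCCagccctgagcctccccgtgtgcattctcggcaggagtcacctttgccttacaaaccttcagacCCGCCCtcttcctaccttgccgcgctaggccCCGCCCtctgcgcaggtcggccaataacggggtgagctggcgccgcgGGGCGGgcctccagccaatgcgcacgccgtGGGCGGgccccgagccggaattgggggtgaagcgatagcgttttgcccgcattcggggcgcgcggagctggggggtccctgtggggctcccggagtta
MBOAT7, chr19:54189531-54189830: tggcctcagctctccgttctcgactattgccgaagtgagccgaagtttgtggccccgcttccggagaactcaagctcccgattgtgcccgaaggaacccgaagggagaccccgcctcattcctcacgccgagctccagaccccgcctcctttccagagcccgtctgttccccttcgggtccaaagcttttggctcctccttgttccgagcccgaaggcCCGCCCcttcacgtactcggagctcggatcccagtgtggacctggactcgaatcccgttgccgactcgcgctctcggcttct
LPCAT1, chr5:1523911-1524210: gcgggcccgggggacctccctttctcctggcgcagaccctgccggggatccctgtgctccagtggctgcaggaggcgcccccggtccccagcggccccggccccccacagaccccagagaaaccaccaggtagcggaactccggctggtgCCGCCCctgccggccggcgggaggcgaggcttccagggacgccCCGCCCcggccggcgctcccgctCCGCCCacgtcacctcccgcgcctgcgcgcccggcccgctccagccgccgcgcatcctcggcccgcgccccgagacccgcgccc
The LPCAT3 window held 5 matches of the GC box, that of LPCAT1 held 3 and that of MBOAT7 held 1. A match was present in 45.0% of all 35116 windows of this length. RefSeq windows were matched for 7 of the 10 genes, and 6 of these 7, LCLAT1 being the exception, held at least 1 match. Over the 9 windows of these 7 genes, of which LPGAT1 had 3, GC content ran from 62.7 to 83.7%, against a median of 58.7% over all windows. The letters CCAAT, on either strand, occurred at 3 positions in the LPCAT3 window and in 34.6% of all windows. LPCAT3 is a known target of the liver X receptors, whose DR4 element is a direct repeat of AGGTCA with 4 bases between the copies. An exact DR4, searched on both strands, was in none of the 9 windows and in 0.0199% of all windows, and the PPAR element DR1, the same repeat with 1 base between, was in none of the 9 and in 0.0228% of all. Absence of these letters from a window says nothing of the receptors.

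Markers of the cell line were present. The 8 mesenchymal markers summed to 2752 to 2861 TPM in control and 2975 to 3050 TPM in ArA libraries, with VIM at 1335 TPM or more in every library, while of the luminal markers ESR1 was at most 0.03 TPM and PGR was listed at 0. The 12 luminal markers, 9 of which had a mean of at least 1 TPM, summed to 811.5 to 997.8 and 878.9 to 985.6 TPM, most of it from the keratins KRT8, KRT18 and KRT19. The 8 blood cell markers summed to at most 0.52 TPM, with HBA1, HBB and MS4A1 listed at 0. The 10 fibroblast and muscle markers summed to 14.2 to 15.4 TPM in control and 13.1 to 18.5 TPM in ArA libraries. Only 3 of these 10 averaged 1 TPM or more, and MYOD1 was listed at 0. The 3 were COL1A1 at 5.27 to 6.76, PDGFRB at 3.5 to 5.97 and ACTA2 at 2.4 to 2.95 TPM. Control replicate 2 and ArA replicate 1 stood apart from the rest of their groups: over 12637 tested genes the deviation from the gene mean correlated with transcript GC content at r = 0.45 and 0.41, against -0.40 to -0.10 in the other 4 libraries. Mitochondrially encoded transcripts took 31.6 to 32.9% of the control libraries, 32.1% of ArA replicate 1, and 28.0 and 26.9% of ArA replicates 2 and 3, and a lower share raises the TPM of all other genes. TPM holds no read totals, so the depth behind each value is unknown.

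Transcripts of all 10 enzymes were detected in all 6 libraries, over a wide range of levels. MBOAT7, which puts arachidonate into lysophosphatidylinositol, had the highest level, with 268.5 ± 30.6 TPM untreated and 280.5 ± 31.4 TPM under ArA (SD, n = 3 for these and the following means). LPCAT1, a lysophosphatidylcholine acyltransferase known for the dipalmitoyl lipid of lung surfactant, followed at 181 ± 12.5 and 194 ± 5.14 TPM, and LPCAT3, which puts arachidonate and linoleate into phosphatidylcholine and phosphatidylethanolamine, at 63.0 ± 5.76 and 81.2 ± 6.17 TPM. Below these came LPCAT4 at 31.3 ± 1.85 and 34.0 ± 2.13 TPM, LCLAT1 at 18.9 ± 2.73 and 21.7 ± 2.24 TPM, and LPCAT2 at 17.0 ± 3.48 and 17.4 ± 1.95 TPM. TAFAZZIN had 12.4 ± 0.149 and 12.5 ± 0.974 TPM, MBOAT2 9.61 ± 3.41 and 9.05 ± 0.260 TPM, LPGAT1 9.18 ± 2.61 and 8.93 ± 1.15 TPM, and MBOAT1 4.60 ± 0.574 and 5.40 ± 0.393 TPM. The first 5 genes in this order kept their places in every library, with no overlap between neighbours. The values of LCLAT1 overlapped those of LPCAT2 in both groups, although LCLAT1 was above LPCAT2 within each of the 6 libraries. MBOAT2 overlapped LPGAT1 in both groups, and TAFAZZIN overlapped MBOAT2 in the control libraries.

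**Figure D1:**
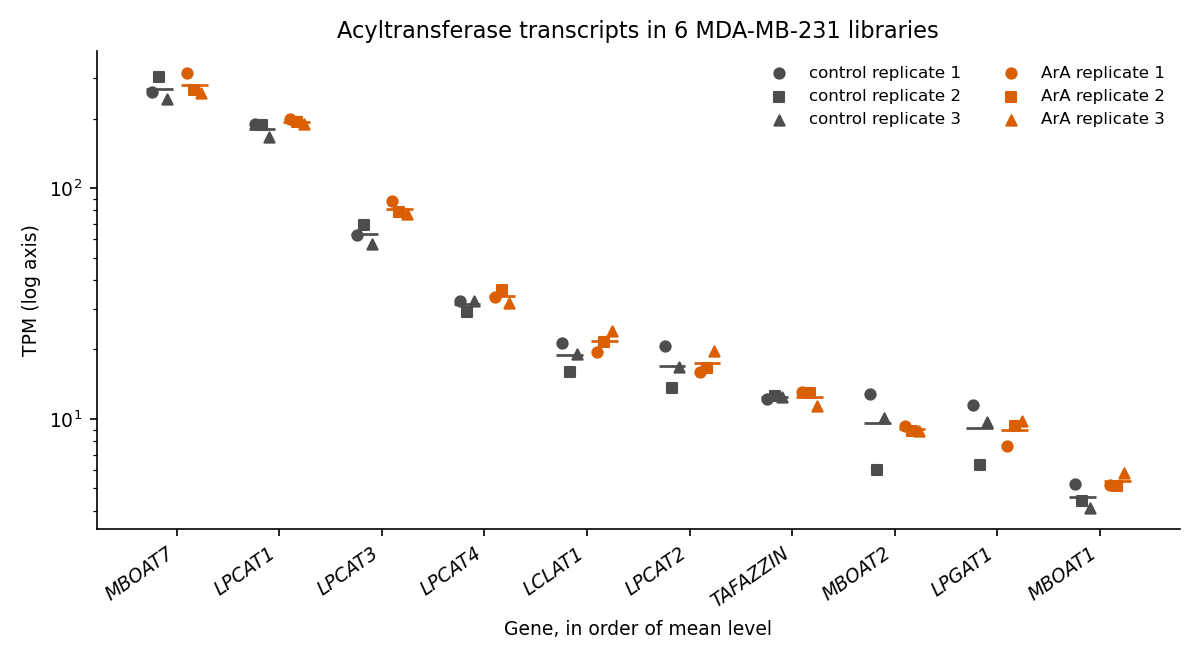
TPM of the 10 acyltransferase genes (log axis) in 3 control libraries (grey) and 3 ArA libraries (orange), with symbols for replicates and short lines for group means. MBOAT7, LPCAT1 and LPCAT3 stand above the other genes in all 6 libraries, and the spread is widest for MBOAT2 and LPGAT1 in the control group, where replicate 2 is lowest.

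Relative to the summed TPM of the 10 genes, MBOAT-type enzymes made up 54.3 to 59.2% and AGPAT-type enzymes 39.0 to 43.7% of each library. The 3 highest shares of MBOAT-type transcripts did not fall in one group, and the group means were 56.1 ± 2.54% in control and 56.5 ± 2.31% in ArA libraries (SD, n = 3 each). The share was 59.0% in control replicate 2 and 59.2% in ArA replicate 1, which stood apart by GC content, and 54.3 to 55.3% in the others. The sum itself was 628.2, 646.4 and 571.0 TPM in untreated replicates 1, 2 and 3, against 708.5, 648.4 and 636.2 TPM with ArA in the same order, which is kept below, and the groups overlapped.

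Mean LPCAT3 TPM was 1.29-fold higher with ArA than in untreated cells, and the other 9 genes lay between 0.942-fold for MBOAT2 and 1.17-fold for MBOAT1. Of the 10 genes, 0 differed past an adjusted p of 0.05 in limma, with Benjamini-Hochberg adjustment over all 12999 tested genes, a call that 0.0231% of tested genes received. At an unadjusted p under 0.05, 1 of the 10 was higher in ArA libraries (2.28% of tested genes) and 0 were lower (0.508%), or 1 in either direction (2.78%). The 3 ArA values lay above the 3 control values for 2 genes, LPCAT3 and LPCAT1 (6.84% of tested genes), and below them for 0 (1.21%), or 2 in either direction (8.05%). Log2 fold changes were positive for 8 of the 10, as for 68.9% of tested genes, with a median of 0.08 against 0.06 over all tested genes. Positive signs were 6, 6 and 5 of 10 after scaling by median of ratios, quantile normalization and rescaling without mitochondrially encoded genes, which moved the median of all tested genes to 0.0031, 0.0053 and -0.0021.

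LPCAT3 (ENSG00000111684, reverse strand of chromosome 12 from 6976186 to 7018510 on hg38, a protein-coding gene in GENCODE 29) showed the largest difference of the 10. It had 62.62, 68.93 and 57.42 TPM in untreated replicates 1, 2 and 3, against 88.23, 78.45 and 76.82 TPM with ArA. Each ArA library was above each control library, with a gap of 7.89 TPM between the lowest ArA and the highest control value. No other gene of the 10 had so wide a gap. On the log2(TPM + 1) scale, which slightly understates such changes, the difference was 0.36 with an SE of 0.10 and a 95% interval of 0.12 to 0.60. The unadjusted limma p of 0.00939 ranked 75 among 12999 genes, with an adjusted p of 0.999. Less the median of all tested genes it was 0.31, and 0.29 to 0.30 under the other 3 scalings and the GC correction. It depended more on single libraries, falling to 0.19 when ArA replicate 1 was left out and to 0.21 when control replicate 3 was, and reaching 0.42 when control replicate 2 was. After scaling by median of ratios the groups no longer separated: control libraries had 62.3, 75.2 and 55.7 and ArA libraries 94.5, 74.0 and 70.8 scaled TPM (unadjusted p = 0.0876, limma), so control replicate 2 lay above ArA replicates 2 and 3. Without control replicate 2 and ArA replicate 1, the libraries that stood apart by GC content, the log2 fold change was 0.37 (limma adjusted p = 0.478). With array weights, which gave control replicate 2 and ArA replicate 1 the lowest weights of 0.219 and 0.303 and ArA replicate 2 the highest of 7.59, LPCAT3 passed at an adjusted limma p of 0.0303 with a log2 fold change of 0.41, in a fit that called 214 genes (1.65%), 169 of them higher (1.3%).

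The span of LPCAT3 overlaps the protein-coding genes EMG1, at a mean of 12.7 TPM, and C1S, at 1.77 TPM, on the opposite strand. Whether strand was used in counting is not stated, so reads of these genes may not have been told apart. The same holds for TAFAZZIN, which overlaps DNASE1L1, at 21.1 TPM on the opposite strand, over 595 bases.

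**Figure D2:**
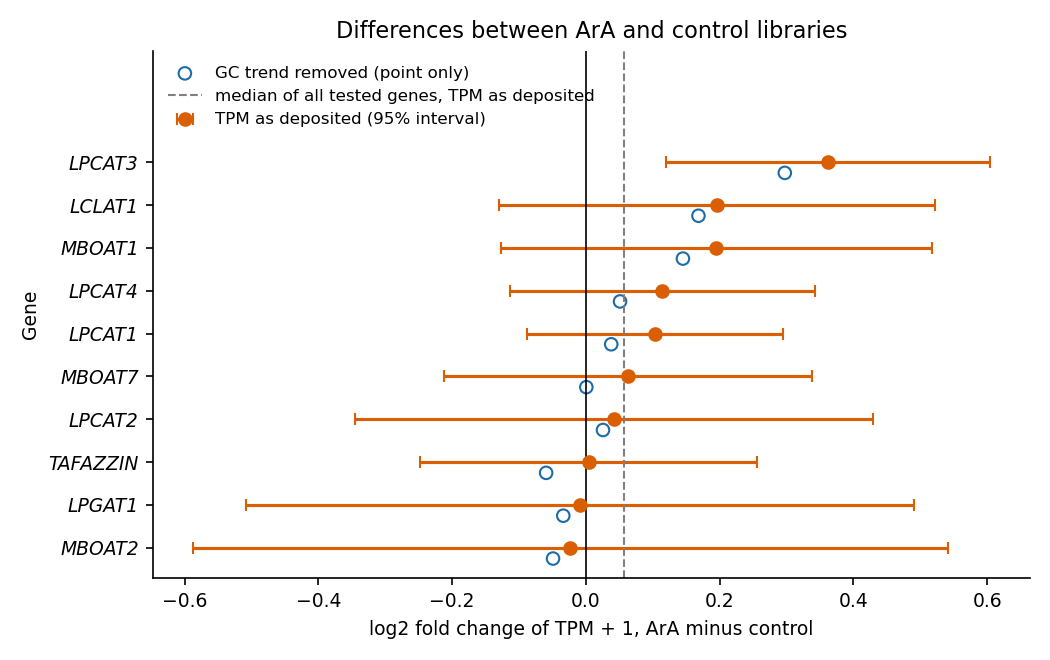
Log2 fold change of TPM + 1, ArA minus control, for each gene (filled points, bars for the 95% interval from limma) and the same after removal of the libraries' GC trends (open points), with the median of all tested genes as a dashed line. Only the interval of LPCAT3, 0.12 to 0.60, leaves out 0.

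The ratio of one gene's TPM to another's within a library does not change when a library is multiplied by a single factor, as in median of ratios scaling, though it does under quantile normalization. The ratio of LPCAT3 to LPCAT1 was 0.332, 0.369 and 0.345 in control replicates 1, 2 and 3 and 0.443, 0.406 and 0.407 in ArA replicates 1, 2 and 3. All 3 ArA libraries thus held more LPCAT3 per LPCAT1 than any control library, by 0.26 on the log2 scale between group means, and by 0.22 to 0.30 when any 1 library was left out. The longest transcripts of the pair have similar GC content, 52.8% for LPCAT3 and 53.7% for LPCAT1, while that of MBOAT7 has 58.1%. Within each group the ratio of LPCAT3 to LPCAT1 was highest in the library that stood apart by GC content, control replicate 2 or ArA replicate 1. Between the best known users of arachidonoyl-CoA, the ratio of LPCAT3 to MBOAT7 was 0.235 ± 0.00628 in control and 0.290 ± 0.00987 in ArA libraries (SD, n = 3 each), again with no overlap. LPCAT3 made up 9.97, 10.7 and 10.1% of the summed TPM of the 10 genes in control replicates 1, 2 and 3 and 12.5, 12.1 and 12.1% in the ArA replicates. These ratios rest on the same LPCAT3 values as its fold change and are no further evidence, and no test was made of them, since the pairs were chosen among genes whose values were known.

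**Figure D3:**
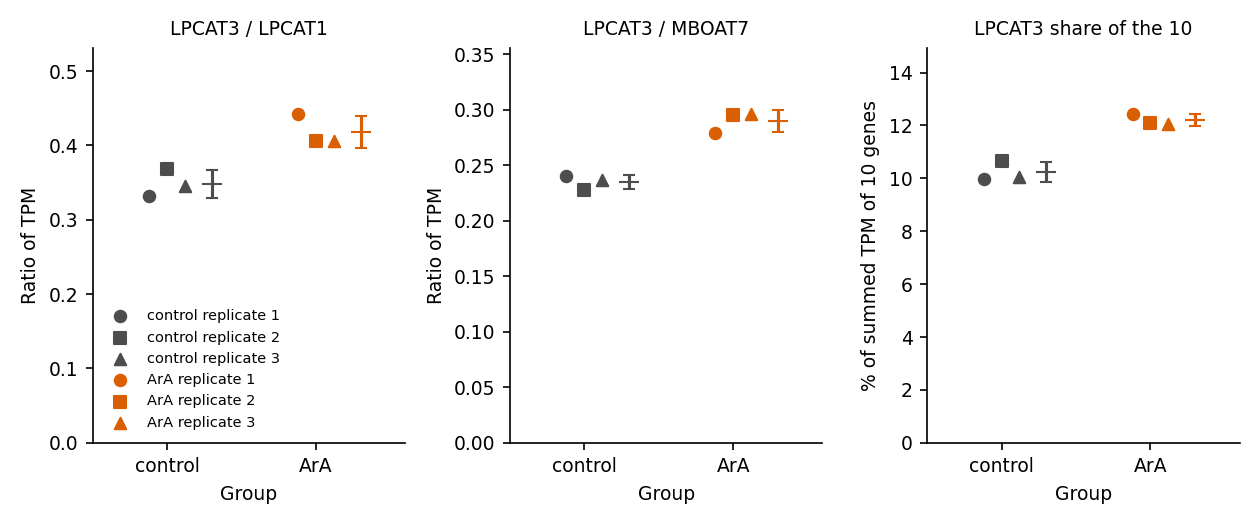
Ratio of LPCAT3 to LPCAT1 TPM, ratio of LPCAT3 to MBOAT7 TPM and LPCAT3 as a percentage of the summed TPM of the 10 genes, by library, with group means ± SD (n = 3) beside the points and axes starting at 0. In each panel the 3 ArA libraries lie above the 3 control libraries.

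MBOAT7 (ENSG00000125505, chromosome 19 from 54173412 to 54189882) had overlapping groups. It had 260.67, 302.31 and 242.61 TPM in untreated replicates 1, 2 and 3, against 316.49, 265.80 and 259.09 TPM with ArA. The highest library of each group was the one that stood apart by GC content, control replicate 2 and ArA replicate 1. The log2 fold change of 0.06 had an SE of 0.12 and a 95% interval of -0.21 to 0.34, at an adjusted limma p of 0.999, so folds of TPM + 1 from 0.863 to 1.26 were not distinguished. With mitochondrially encoded genes left out of the TPM total, the sign was negative, at -0.0022.

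LPCAT1 (ENSG00000153395, chromosome 5 from 1456480 to 1523977) had 188.72, 187.03 and 166.23 TPM in untreated replicates 1, 2 and 3, against 199.20, 193.30 and 188.96 TPM with ArA. The groups were separated only by 0.240 TPM, between ArA replicate 3 and control replicate 1, and not after any of the other 3 scalings. Its log2 fold change of 0.10 had an SE of 0.08 and a 95% interval of -0.09 to 0.29, at an adjusted limma p of 0.999. LPCAT2 (ENSG00000087253, chromosome 16 from 55508998 to 55586670), which besides acylating lysophosphatidylcholine makes platelet-activating factor by acetylation, had 20.61, 13.66 and 16.84 TPM in untreated replicates 1, 2 and 3, against 15.94, 16.65 and 19.61 TPM with ArA. All 3 ArA values of LPCAT2 lay within the control range, and the interval of its log2 fold change, -0.35 to 0.43, spans folds from 0.787 to 1.35. LPCAT4 (ENSG00000176454, chromosome 15 from 34358618 to 34367278), a lysophosphatidylethanolamine acyltransferase, had 32.41, 29.18 and 32.37 TPM in untreated replicates 1, 2 and 3, against 33.90, 36.17 and 31.91 TPM with ArA. ArA replicate 3 of LPCAT4 lay below control replicates 1 and 3, and the log2 fold change was 0.11 (95% interval -0.11 to 0.34, limma adjusted p = 0.999).

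MBOAT1 (ENSG00000172197, chromosome 6 from 20102145 to 20212399), which acylates lysophosphatidylserine and lysophosphatidylethanolamine with oleate, was the lowest of the 10, at 5.24, 4.43 and 4.13 TPM in untreated replicates 1, 2 and 3, against 5.19, 5.15 and 5.85 TPM with ArA. Control replicate 1 lay above ArA replicates 1 and 2, and the log2 fold change of 0.20 had a 95% interval of -0.13 to 0.52. MBOAT2 (ENSG00000143797, chromosome 2 from 8852690 to 9003813), its close relative with a preference for oleate, had 12.77, 5.99 and 10.06 TPM in untreated replicates 1, 2 and 3, against 9.35, 8.91 and 8.89 TPM with ArA. The ArA values of MBOAT2 lay close together inside a wide control range, and its log2 fold change was -0.02 (95% interval -0.59 to 0.54), so that folds from 0.666 to 1.46 were not distinguished. Without control replicate 2 it was -0.30, with all 3 ArA values below the remaining control values, as 10.2% of tested genes then were, and without control replicate 1 it was 0.19. Neither gene passed, at a limma adjusted p of 0.999 for both.

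LPGAT1 (ENSG00000123684, chromosome 1 from 211743457 to 211830772), an acyltransferase for lysophosphatidylglycerol, had 11.49, 6.35 and 9.70 TPM in untreated replicates 1, 2 and 3, against 7.63, 9.35 and 9.80 TPM with ArA. As with MBOAT2, control replicate 2 was the lowest of the 6 libraries and control replicate 1 the highest. Its log2 fold change was -0.0087 (95% interval -0.51 to 0.49). LCLAT1 (ENSG00000172954, chromosome 2 from 30447226 to 30644225), which acylates lysocardiolipin and lysophosphatidylinositol, had 21.43, 16.00 and 19.14 TPM in untreated replicates 1, 2 and 3, against 19.46, 21.65 and 23.93 TPM with ArA. ArA replicates 2 and 3 lay above all control values and ArA replicate 1 did not, with a log2 fold change of 0.20 (95% interval -0.13 to 0.52). TAFAZZIN (ENSG00000102125, chromosome X from 154411518 to 154421726), which remodels the cardiolipin of mitochondrial inner membranes, had 12.25, 12.53 and 12.48 TPM in untreated replicates 1, 2 and 3, against 13.08, 13.01 and 11.36 TPM with ArA. It had the narrowest control spread of the 10 genes, and ArA values lay on both sides of it, for a log2 fold change of 0.0043 (95% interval -0.25 to 0.26). The limma adjusted p was 0.999 for all 3 genes.

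In the control group, the widest spreads between replicates on the log2 scale were those of members with transcripts of low GC content. The ArA group was mixed. There LPGAT1 had the widest SD at 0.17, followed by MBOAT7, the member of highest GC content, at 0.16. MBOAT2 had the narrowest of the 10 at 0.037. By the longest GENCODE 29 transcript, 5 of the 10 genes lie under 50% GC (LPCAT2 at 37.3%, LPGAT1 at 38.7%, MBOAT2 at 38.9%, LCLAT1 at 39.3% and MBOAT1 at 48.0%) and 5 over it (LPCAT3 at 52.8%, LPCAT1 at 53.7%, TAFAZZIN at 56.4%, LPCAT4 at 56.7% and MBOAT7 at 58.1%). In control replicate 2, all 5 genes under 50% were below the mean of the other 2 control libraries, by -0.82 for MBOAT2, -0.65 for LPGAT1, -0.42 for LPCAT2, -0.32 for LCLAT1 and -0.06 for MBOAT1 as log2 differences. Of the genes over 50%, MBOAT7 was higher there by 0.26, LPCAT3 by 0.20, LPCAT1 by 0.08 and TAFAZZIN by 0.02, while LPCAT4 was at -0.15. The median difference of all tested genes in this library was also below 0 throughout 36 to 50% GC. It rose from -0.66 at 36 to 38% to -0.04 at 48 to 50%. Over the 10 genes, Pearson's r between GC content and this difference was 0.85, against 0.50 over 12637 tested genes. Whether these values of r differ was not tested. In ArA replicate 1 against the other 2 ArA libraries, r over the 10 genes was 0.76, with differences of -0.29 for LPGAT1, -0.22 for LCLAT1 and -0.17 for LPCAT2, but 0.06 for MBOAT2. These are descriptions of 1 library each, and the points share that library.

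**Figure D4:**
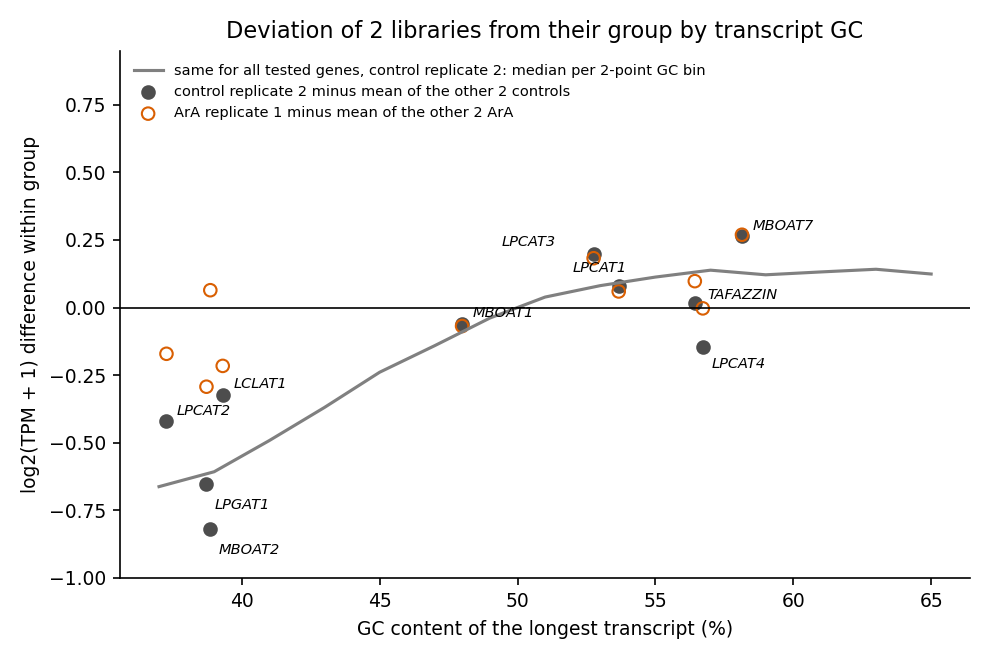
Difference in log2(TPM + 1) between control replicate 2 and the other 2 control libraries (filled, labelled) and between ArA replicate 1 and the other 2 ArA libraries (open), against the GC content of each gene's longest transcript. The grey line is the median over all tested genes for control replicate 2, and the 4 genes between 37.3 and 39.3% GC lie far below 0 in that library.

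Removal of each library's GC trend narrowed the control SD of LPGAT1 on the log2 scale from 0.39 to 0.10 and that of MBOAT2 from 0.50 to 0.20, but widened the ArA SD of MBOAT2 from 0.04 to 0.30. The control SD was smaller after removal for 6 of the 10 genes, with the median going from 0.153 to 0.135, and the ArA SD for 5 of 10, with the median going from 0.106 to 0.121. After the correction LPCAT3 had a log2 fold change of 0.30 (unadjusted p = 0.0196, limma adjusted p = 1), LCLAT1 of 0.17, MBOAT1 of 0.15 and MBOAT7 of 0.0007, and TAFAZZIN turned to -0.06. In this fit, too, 0 of the 10 passed and 1, LPCAT3, had an unadjusted limma p under 0.05. Of the 12637 genes in the fit, 5 passed and 515 had an unadjusted limma p under 0.05.

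Genes that surround these enzymes were taken as 8 lists, with 107 different genes, of which 81 were tested. None passed an adjusted p of 0.05 in limma, 2 were higher and 1 lower at an unadjusted p under 0.05 (2.28% and 0.508% of tested genes), and the groups did not overlap for 6 higher genes, ACSL1, ACSL5, ACOT1, HADHA, HADHB and CDS2, and 1 lower gene, PITPNM1 (6.84% and 1.21%). Of the 81 genes, 65 had positive log2 fold changes, with a median of 0.09, against 68.9% and 0.06 over all tested genes. Signs and medians of the lists were taken on TPM as deposited and not under the other scalings. Of the 10 tested genes that supply or remove arachidonoyl-CoA, 8 were positive with a median of 0.13, and 3 of the 6 genes above belong here. ACSL5, a long-chain acyl-CoA synthetase, had 135.90, 121.47 and 118.30 TPM in untreated replicates 1, 2 and 3, against 155.82, 148.90 and 154.06 TPM with ArA (log2 fold change 0.29, SE 0.08, limma adjusted p = 0.999). The acyl-CoA binding protein gene DBI had the highest level of this list, at 294.5 ± 49.0 TPM untreated and 309 ± 58.6 TPM under ArA (SD, n = 3 each). Another list joins phospholipases A2, which make the substrates of the acyltransferases, with lysophospholipases, which do not. Among its 15 tested genes, 0 separated the groups and 14 had positive log2 fold changes, with a median of 0.15. PNPLA6, a lysophospholipase also called neuropathy target esterase, had the smallest p and the highest level of these, at 78.7 ± 9.18 and 95.6 ± 9.56 TPM (limma adjusted p = 0.999).

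In the other lists, too, 0 genes passed. Of 13 tested acyltransferases of glycerolipid synthesis, 8 were positive with a median of 0.05. GPAT3, which starts that pathway, had the smallest p of this list at 22.5 ± 4.07 and 27.0 ± 0.506 TPM, and AGPAT1 the highest level at 71.3 ± 7.46 and 75.1 ± 6.03 TPM (SD, n = 3 each). Of 4 tested other MBOAT genes 3 were positive, with PORCN, which acylates Wnt proteins, at 3.26 ± 0.914 and 4.26 ± 0.525 TPM and the cholesterol acyltransferase gene SOAT1 at 28.7 ± 6.47 and 33.7 ± 1.39 TPM. The 15 cardiolipin genes had a median of 0.08. Their member HADHB, of the mitochondrial trifunctional protein, had 63.1 ± 0.942 and 70.1 ± 3.80 TPM, and PHB1, a prohibitin gene, 295 ± 20.8 and 310 ± 12.0 TPM. The platelet-activating factor list had 5 of 5 tested genes positive, with a median of 0.07, CHPT1 at 50.5 ± 4.82 and 56.4 ± 1.76 TPM and PAFAH1B3 at 54.6 ± 5.17 and 57.3 ± 4.71 TPM.

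The list made for phosphatidylinositol synthesis and transfer also holds genes with other roles. Of its 9 genes, 8 were tested and 6 were positive. PITPNM1, a phosphatidylinositol transfer protein gene, was the only one of the 81 genes with all ArA values below all control values, at 13.67, 15.18 and 13.33 TPM in untreated replicates 1, 2 and 3, against 10.93, 11.61 and 10.45 TPM with ArA (log2 fold change -0.33, SE 0.11, limma adjusted p = 0.999). CDIPT, the phosphatidylinositol synthase gene, had 54.3 ± 3.54 and 55.8 ± 6.39 TPM. Of 14 tested genes of the LXR and SREBP-1c list, which holds known regulators of LPCAT3 and their targets, 0 separated the groups, 12 were positive and the median was 0.05, against 0.06 over all tested genes. NR1H3, which codes for LXR alpha, had 5.59, 7.11 and 7.53 TPM in untreated replicates 1, 2 and 3, against 10.00, 7.22 and 8.61 TPM with ArA, and the groups overlapped. SCD, the stearoyl-CoA desaturase gene, had 870 ± 59.9 and 911 ± 43.3 TPM.

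Among the genes whose levels over the 6 libraries were most like those of LPCAT3, out of 9132 others averaging 5 TPM or more, were P4HA2 (r = 0.99), a collagen prolyl hydroxylase gene, and KCTD10 (r = 0.99). The points are 6 libraries shared by all genes, and 84 genes had r above 0.95. P4HA2 had 69.93, 74.67 and 65.79 TPM in untreated replicates 1, 2 and 3, against 84.82, 79.41 and 79.92 TPM with ArA, in the same order of libraries as LPCAT3 apart from ArA replicates 2 and 3. Its log2 fold change was 0.21 (limma adjusted p = 0.999).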

How the data were processed

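The 3 control and 3 ArA libraries were made from total RNA with a TruSeq kit, per the labels' protocols. The authors deposited 1 table in TPM. The submitters' processing notes list HISAT2, StringTie, RSEM and hg38, with no version or role. No source used here gives the annotation or strand setting. Of the table's lines, 50 named no gene and were left out. Columns were matched to samples by title.

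Levels were analysed as log2(TPM + 1) with limma 3.58.1 in R 4.3.3 (trended eBayes, group as the only term, 2-sided) over the 12999 genes averaging 1 TPM or more, Benjamini-Hochberg adjusted over all of them at 0.05. The fit was tested on simulated data with independent noise for each gene and library. Recovery was required only for changes far larger than those of the members, so this test says nothing of changes of their size. GC content and length came from the longest GENCODE 29 transcript (97.2% of tested genes); the GC trend of each library was removed with a spline of 5 degrees of freedom. Alternatives were other scalings, pseudocounts, filters, variance models, the replicate block, each library left out and, chosen after seeing the data, the 2 libraries that stood apart left out. Members and lists were chosen with earlier results of these data known. The naming rule took all members, in each list the gene with the smallest p and that with the highest mean, and the 3 genes most correlated with LPCAT3, of which 1 is not reported here; ACSL1, ACOT1, HADHA, CDS2 and overlapping genes were named after their values were seen. Sequences came from RefSeq.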

Additional observations from a re-analysis of the deposited data

How the results depend on the processing

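With 3 libraries a group and no read totals, small differences of genes with a wide spread between control libraries, such as MBOAT2 and LPGAT1, cannot be resolved. For LPCAT3, LPCAT1, LPCAT4, LCLAT1 and MBOAT1 the log2 fold change stayed positive in every alternative run. With 1 library left out it was 0.30 to 0.43 for LPCAT3, 0.04 (without control replicate 3) to 0.14 for LPCAT1, 0.07 (without control replicate 2) to 0.16 for LPCAT4, 0.09 (without control replicate 2) to 0.29 for LCLAT1 and 0.13 to 0.28 for MBOAT1. LPCAT4 was also at 0.07 without ArA replicate 2, and LCLAT1 at 0.13 without ArA replicate 3. MBOAT1 has no value under a minimum of 5 TPM. The count of 0 members past the threshold in limma held in each alternative but array weights, where it was 1. Members with groups that did not overlap numbered 2, both higher. They were 0 after median of ratios, 1 after quantile normalization and 1 after rescaling without mitochondrially encoded genes. Of all tested genes 5.45, 5.72 and 6.04% separated under these scalings. With control replicate 2 and ArA replicate 1 left out they numbered 4, and with 1 library left out 2 to 4 (4 without control replicate 1 or ArA replicate 3). Fewer libraries separate more easily: over all tested genes the share was 44.4% with both left out and 12.4 to 27.0% with 1 left out, against 8.05%, so these counts show nothing of the members. MBOAT2 was the lower member, without control replicate 2 and with both left out. Of all tested genes 3 passed: 214 did with array weights, 5 with the GC trend removed, 12 with both libraries left out, and 0 to 7 with 1 library left out (0 without control replicate 1 or ArA replicate 2, where 413 and 228 had an unadjusted limma p under 0.05; 7 without control replicate 2 or ArA replicate 1). With the replicate number as a block, 0 genes passed (232 at an unadjusted limma p under 0.05). Same-numbered libraries deviated together at r = -0.16, -0.28 and 0.11, and control replicate 2 with ArA replicate 1 at 0.29. Taken within groups of 3 libraries, these values cannot tell whether same-numbered libraries shared a culture or run. Members past the threshold were 0 with and without the block.

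LPCAT2 was -0.0145 with median of ratios, -0.0174 with quantile normalization, -0.0203 without mitochondrially encoded genes, -0.0258 with array weights, -0.0419 with both libraries left out, and -0.10 to 0.18 with 1 library left out. TAFAZZIN was -0.0505, -0.0467 and -0.0573 under these 3 scalings, -0.0594 with the GC trend removed, alone or with the replicate block, -0.0223 with both libraries left out, and -0.0283 to 0.0657 with 1 left out. MBOAT7 was -0.0022 without mitochondrially encoded genes and -0.027 to 0.15 with 1 library left out, MBOAT2 -0.30 to 0.19 and LPGAT1 -0.23 to 0.16. With both libraries left out MBOAT2 was -0.32 and LPGAT1 -0.13, and with array weights MBOAT2 was -0.175. The cause was not tested. The log2 ratio of LPCAT3 to LPCAT1 differed by 0.26 between group means. This difference was 0.22 to 0.30 in the 8 alternatives run for it: TPM + 1, each library left out, and both left out. Leaving out 1 of 3 libraries can move a group mean only within its spread, so this range is a description.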
